A study of Homo sapiens with 6 samples.

Results

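The genes described here are 10 genes of interleukin-1 signalling and pyroptosis in MDA-MB-231 cells, a line derived from a human breast cancer that lacks estrogen and progesterone receptors and HER2 amplification (triple-negative). They are the ligands IL1A, IL1B and IL18, the receptor subunits IL1R1 and IL1RAP, the sensor NLRP1, the caspases CASP1 and CASP4, and the gasdermins GSDMD and GSDME (older symbol DFNA5). They were chosen by name and matched by symbol to 10 of the 63241 genes in the count tables. All 10 passed the filter on low counts, as did 15295 genes in all. Wild-type cells of this line received either 5 μM nitidine chloride (NCD), a plant alkaloid, or 0.1% DMSO alone, and RNA was taken after 24 h, with 3 libraries in each of the 2 groups. Both groups come from a single cell line, and p-values measure the spread between these libraries, which may be partly technical because no label says that they came from independent cultures. For NCD replicates 2 and 3 the description field names a different cell line number from the cell line field, and the latter (MDA-MB-231) was used.

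Interleukin-1 is made as IL-1 alpha and IL-1 beta, which bind the receptor IL1R1 together with its accessory protein IL1RAP and signal through MYD88 to NF-kB. IL-1 beta and IL-18 are made as precursors that caspase-1, activated in inflammasomes by sensors such as NLRP1 and NLRP3, cuts into active cytokines. Caspase-1 and caspase-4 also cut gasdermin D, gasdermin E is cut in a similar way, and the freed fragments form pores in the plasma membrane that release the cytokines and end in a lytic cell death called pyroptosis. All of these steps from the precursor onwards act on protein, so mRNA levels measure the supply of the components and not their activity.

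The sequences below lie upstream of the ligand genes IL1A and IL1B and of IL1RAP, whose mRNAs were lower with NCD. They were taken from the RefSeq promoter table (GRCh38.p14), which held 6 of the 10 genes, and each shows the part of the 250 bases before an annotated start that lies outside every exon of GENCODE release 29. They are written in the direction of transcription, and capitals mark TATAAA, on which TATA-binding protein can assemble, and CCAAT, bound by the factor NF-Y.
IL1A, first start site, chr2:112784591-112784743, minus strand: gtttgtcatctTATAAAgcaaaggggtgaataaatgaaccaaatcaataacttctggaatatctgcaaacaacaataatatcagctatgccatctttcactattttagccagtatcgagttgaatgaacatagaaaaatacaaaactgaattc
IL1B, chr2:112836904-112837029, minus strand: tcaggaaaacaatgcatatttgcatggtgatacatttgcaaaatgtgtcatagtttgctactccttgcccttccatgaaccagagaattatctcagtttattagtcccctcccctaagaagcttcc
IL1RAP, chr3:190513835-190514050, plus strand: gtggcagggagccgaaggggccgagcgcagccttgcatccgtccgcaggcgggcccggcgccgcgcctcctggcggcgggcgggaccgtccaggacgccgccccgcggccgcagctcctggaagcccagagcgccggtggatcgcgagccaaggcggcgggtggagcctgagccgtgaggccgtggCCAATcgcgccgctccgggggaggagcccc
The stretch of IL1A is rich in A and T and holds TATAAA at -239 from its start, that of IL1RAP is rich in G and C and holds CCAAT at -64, and that of IL1B holds none of the motifs searched. These were TATAAA, the AP-1 site TGANTCA, the box CCAAT, the core TGACGT of the cAMP response element, and the consensus sites of NF-kB and of the interferon-stimulated response element, on both strands, over the whole 250 bases. Over that whole window IL1B had CCAAT at -123 and CASP4 had it at -134 and -126, both start sites of IL1A had an AP-1 match, and the second also had CCAAT at -64. Of the 4 start sites of IL1R1, the third had TATAAA at -229 and -124 and the fourth CCAAT at -208, and GSDME had no match. CCAAT was present in 32.0% of 35116 promoter windows of this length, TATAAA in 10.7%, the AP-1 site in 6.57%, TGACGT in 7.1%, the NF-kB site in 9.96% and the interferon element in 3.02%. No window of the 6 genes had a match to the NF-kB site, the interferon element or TGACGT, which says only that these letters are not in these windows.

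The libraries held between 18223594 and 21629653 counts, and no pair within a group was alike within sampling noise. Expression is given as CPM, which are counts scaled to a common library size, here after edgeR's TMM method. The groups were compared with the quasi-likelihood test of edgeR, with p-values adjusted by the Benjamini-Hochberg method over all 15295 genes. The term differentially expressed is kept for genes whose adjusted p was below 0.05 and whose log2 fold change was beyond 1 in either direction, and "rose" and "fell" are used for genes past the adjusted p. The cell type was checked against marker genes. Whether these genes tell MDA-MB-231 from other breast cancer lines was not tested. They therefore do not settle the cell line number of NCD replicates 2 and 3. All 7 markers listed for the tumour cells were tested, with a summed level of 6440 to 6770 CPM with DMSO and 4560 to 5030 CPM with NCD. They moved in both directions. By log2 fold change EGFR (-2.61), CD44 (-1.82) and AXL (-1.1) were differentially expressed and lower. CAV1 (-0.83) and VIM (-0.21) fell, and KRT8 (0.53) and KRT18 (0.27) rose. In contrast, ESR1 had at most 7 counts and PGR at most 3 in any library, and ERBB2 had a mean of 37.2 CPM with DMSO and 61 CPM with NCD. Macrophages are a common source of IL-1 beta, and 2 of their 7 markers passed the filter. The summed level of the 7 was 1.64 to 2.23 CPM with DMSO and 1.14 to 1.84 CPM with NCD, while TYROBP and ITGAM had 0 counts in every library. Of the 2 that passed, CSF1R was differentially expressed and lower (log2 fold change -1.18), and CD14 (1.11) was not past the adjusted p. Of 5 T and NK cell markers 1 passed (CD8A), with a sum of 9.34 to 11.1 CPM with DMSO and 17.7 to 20.1 CPM with NCD, and NKG7 and CD2 were at 0. Of 5 fibroblast markers 2 passed (COL1A1 and PDGFRB), with a sum of 4.13 to 5.32 and 18.6 to 19.9 CPM, and COL1A2 was at 0. Of 3 endothelial markers 1 passed, with a sum of 1.10 to 1.39 and 0.568 to 1.31 CPM. The part of these shifts in the results was not tested.

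With NCD the mRNAs of the cytokines IL1A and IL1B, of the accessory receptor IL1RAP and of the sensor NLRP1 fell. Those of the cytokine IL18, of both inflammatory caspases and of GSDMD rose, and IL1R1 and GSDME were not past the adjusted p. By size the changes ranged from 0.383 of the DMSO level for IL1RAP to 2.38 times that level for CASP1. Of the 10 genes 3 (30%) were differentially expressed, beside a share of 31.0% over all genes tested: CASP1 was higher, as were 13.5% of all tested genes, and IL1B and IL1RAP were lower, as were 17.5%. Without the fold threshold 8 of the 10 were past the adjusted p (80%), 4 of them higher and 4 lower, against 69.3% of all tested genes, 35.3% higher and 34.1% lower. In 9 of the 10 the 3 NCD values and the 3 DMSO values did not overlap, in 4 genes with NCD above and in 5 with NCD below, against 72.6% of all tested genes, 37.2% above and 35.3% below. The share that was differentially expressed is near that of all genes. The median log2 fold change of the 10 was -0.16, beside 0.04 over all tested genes. Scaling by library totals in place of TMM shifted the median of all genes by 0.20, and then 2793 genes were higher and 2181 lower, against 2067 and 2669 with TMM. Under that scaling 2 of the 10 genes were differentially expressed and higher (CASP1 and CASP4) and 1 was lower (IL1RAP). Annotated genes that overlap the 10 had at most 4.19 counts in any library. In RNA from whole cultures, a change in the number of cells that express a gene and a change in its mRNA per cell cannot be told apart.

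**Figure D1:**
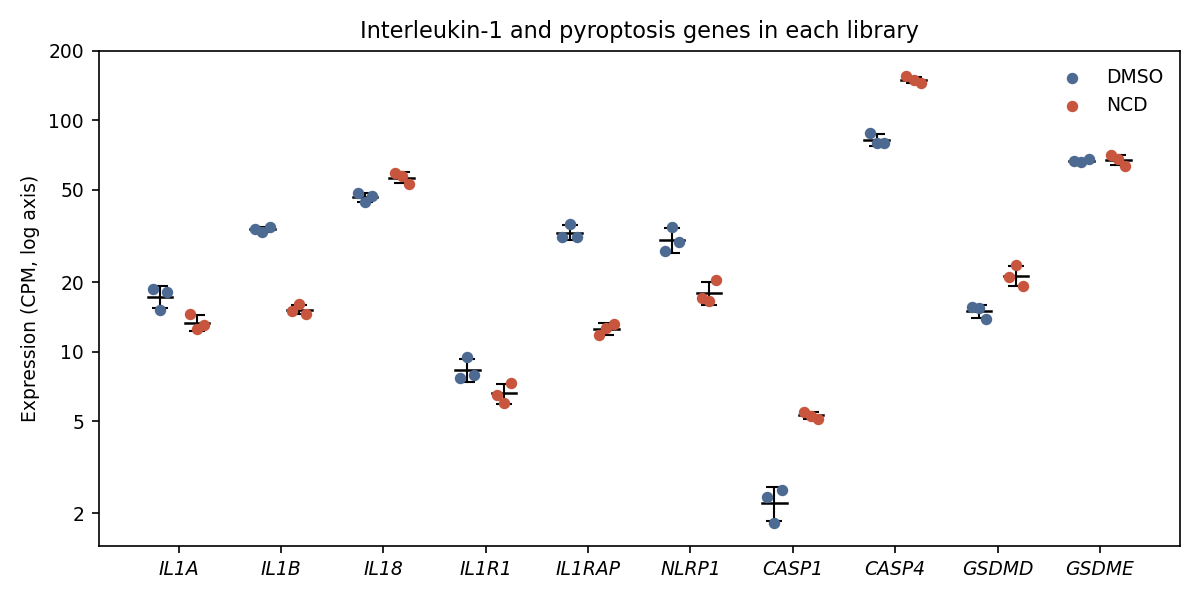
Expression in CPM (log axis) of each of the 10 genes, with 1 point per library, a horizontal line for the mean and bars for the SD of 3 libraries. The NCD points lie below the DMSO points for IL1A, IL1B, IL1R1, IL1RAP and NLRP1, above them for IL18, CASP1, CASP4 and GSDMD, and among them for GSDME.

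Among the ligands, IL1B fell to 0.45 of its DMSO level, IL1A fell by a smaller step and IL18 rose slightly. IL1B (ENSG00000125538; chromosome 2, 112829751 to 112836903 on the minus strand in GENCODE release 29, GRCh38), which encodes the secreted inflammatory cytokine IL-1 beta, had 34, 32.8 and 34.6 CPM in the DMSO libraries and 15, 16 and 14.6 CPM in the NCD libraries. The highest NCD value was below every DMSO value, and the libraries of each group lay close together. The DMSO mean was 33.8 ± 0.901 CPM (SD, n = 3), compared with 15.2 ± 0.741 CPM (SD, n = 3) after NCD. The NCD level was 0.45 of the DMSO level, with a 95% interval of 0.398 to 0.509 and a log2 fold change of -1.15 ± 0.08 (standard error; edgeR adjusted p = 1.77e-06). Leaving out each library in turn moved the log2 fold change between -1.19 and -1.14. With library totals as the scale it was -0.95, still past the adjusted p (7.76e-06 from edgeR) but under the fold threshold.

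IL1A (ENSG00000115008; chromosome 2, 112773915 to 112784590, minus strand), which lies beside IL1B and encodes IL-1 alpha, a cytokine that acts as an alarm signal when cells break, had 18.7, 15.1 and 18.1 CPM with DMSO and 14.5, 12.5 and 13 CPM with NCD. The groups did not overlap, but the lowest DMSO library and the highest NCD library were separated by little. The change was -0.37 ± 0.11 on the log2 scale (standard error; edgeR adjusted p = 0.0159), or 0.773 of the DMSO level (95% interval 0.647 to 0.923). This call depended on the processing. The adjusted p from edgeR was 0.0594 without NCD replicate 2, 0.178 with library totals, where the log2 fold change was -0.17, and 0.0599 with ribosomal protein genes as the reference.

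IL18 (ENSG00000150782; chromosome 11, 112143251 to 112164117, minus strand), which encodes a cytokine that is stored as a precursor and drives interferon gamma in lymphocytes, had 48.4, 44.4 and 46.9 CPM with DMSO and 59.2, 57.4 and 53.2 CPM with NCD. All 3 NCD libraries were above the DMSO libraries. The fold was 1.22 (95% interval 1.08 to 1.36; log2 fold change 0.28, standard error 0.07, edgeR adjusted p = 0.00693), the smallest of the changes past the adjusted p among the 10 genes. It was 0.22 without NCD replicate 1 (adjusted p = 0.0548 from edgeR), and with ribosomal protein genes as the reference the adjusted p was 0.114. The unequal change of the ligands also showed within each library. The ratio of IL1B to IL1A counts was 1.82, 2.18 and 1.91 with DMSO and 1.04, 1.28 and 1.12 with NCD. It does not depend on the scaling of libraries, and its groups did not overlap (two-sided exact permutation test, p = 0.1, the smallest that 3 against 3 libraries allow; 1 of 5 count ratios, all chosen after the values were seen).

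Of the IL-1 receptor subunits, IL1RAP fell to 0.383 of its DMSO level, whereas IL1R1 was not past the adjusted p. IL1RAP (ENSG00000196083; chromosome 3, 190514051 to 190659750, plus strand), the accessory protein that the receptors of IL-1, IL-33 and IL-36 share, had 31.2, 35.5 and 31.4 CPM with DMSO and 11.8, 12.6 and 13.2 CPM with NCD. Every NCD library lay far below the lowest DMSO library. The DMSO mean was 32.7 ± 2.44 CPM (SD, n = 3), compared with 12.5 ± 0.723 CPM (SD, n = 3) after NCD. In log2 terms the change was -1.38 ± 0.09 (standard error; edgeR adjusted p = 1.52e-06), or 0.383 of the DMSO level (95% interval 0.332 to 0.443). IL1RAP had the largest fall of the 10 genes and was differentially expressed under all 17 alternatives, with a range of -1.44 to -1.33 when each library was left out.

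IL1R1 (ENSG00000115594; chromosome 2, 102064544 to 102179874, plus strand), the signalling receptor that binds IL-1 alpha and IL-1 beta, had 7.71, 9.45 and 7.89 CPM with DMSO and 6.51, 6 and 7.32 CPM with NCD. The groups did not overlap, and the nearest libraries were 7.71 and 7.32 CPM. Its log2 fold change was -0.34 (standard error 0.14), and the 95% interval of the fold ran from 0.64 to 0.98. Its adjusted p of 0.0506 from edgeR missed the threshold. Without single libraries it ranged from 0.0236 (without NCD replicate 3) to 0.157 (without NCD replicate 2), and it was below 0.05 also without DMSO replicate 1 (0.0381). With other scalings in edgeR it was 0.0389 (DESeq2 size factors), 0.23 (ribosomal protein genes) and 0.408 (library totals, where the log2 fold change was -0.14), and with DESeq2 it was 0.0849. Per library, the ratio of IL1RAP to IL1R1 counts was 4.05, 3.76 and 3.98 with DMSO and 1.81, 2.09 and 1.81 with NCD. It was smaller in each NCD library (two-sided exact permutation test, p = 0.1, the smallest possible). This is another of the 5 ratios chosen after the values were seen, and it is not corrected for gene length. Per kb of annotated exons, IL1RAP had 1.08 CPM and IL1R1 0.933 CPM with NCD, with overlapping ranges. With DMSO these levels were 2.83 and 1.18.

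The sensor NLRP1 fell and both inflammatory caspases rose. NLRP1 (ENSG00000091592; chromosome 17, 5499427 to 5619424, minus strand) forms an inflammasome in epithelial cells and is held inactive by the peptidases DPP8 and DPP9. It had 27.2, 34.6 and 29.8 CPM with DMSO and 17.0, 16.6 and 20.4 CPM with NCD. The groups did not overlap, and DMSO replicate 2 was the highest library. On the log2 scale the change was -0.77 ± 0.12 (standard error; edgeR adjusted p = 0.000356), or 0.588 of the DMSO level (95% interval 0.488 to 0.709), past the adjusted p but not the fold threshold. It ranged from -0.88 to -0.68 when each library was left out.

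CASP1 (ENSG00000137752; chromosome 11, 105025443 to 105035250, minus strand), the caspase that matures IL-1 beta and IL-18, had 39, 32 and 46 counts with DMSO and 126, 102 and 110 counts with NCD. In CPM these were 2.35, 1.81 and 2.52 with DMSO and 5.51, 5.28 and 5.13 with NCD. The NCD libraries lay close together and well above the DMSO libraries, at a low level in both groups. The fold was 2.38 (95% interval 1.82 to 3.11; log2 fold change 1.25, standard error 0.17, edgeR adjusted p = 0.000159), the largest rise of the 10 genes. CASP1 was differentially expressed under all 17 alternatives, with a log2 fold change of 1.11 without DMSO replicate 2 and up to 1.32 without DMSO replicate 3. Its neighbour CARD16, which encodes a protein like the CARD domain of caspase-1, rose as well (1.31 to 3.76 CPM, log2 fold change 1.51, adjusted p = 0.000538 from edgeR), and reads from the similar sequence may have been split between the pair. The ratio of CASP1 to CARD16 counts, 1.95, 1.78 and 1.48 with DMSO and 1.77, 1.17 and 1.39 with NCD, overlapped between the groups (two-sided exact permutation test, p = 0.2).

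CASP4 (ENSG00000196954; chromosome 11, 104942866 to 104969436, minus strand), the caspase that binds lipopolysaccharide in the cytosol and cuts gasdermin D, had 87.9, 80.0 and 79.5 CPM with DMSO and 155, 149 and 145 CPM with NCD. The groups were far apart and the spread within each was small. The fold was 1.81 (95% interval 1.64 to 2.0; log2 fold change 0.86, standard error 0.06, edgeR adjusted p = 2.9e-06). CASP4 passed the fold threshold only with library totals, where the log2 fold change was 1.06 (adjusted p = 6.61e-07 from edgeR). There were 37.4, 44.2 and 31.5 counts of CASP4 per count of CASP1 with DMSO and 28.1, 28.3 and 28.2 with NCD, so CASP4 was by far the more abundant of the pair in every library.

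Of the gasdermins, GSDMD rose and GSDME was not past the adjusted p. GSDMD (ENSG00000104518; chromosome 8, 143553207 to 143563062, plus strand), the pore protein cut by caspase-1 and caspase-4, had 15.6, 15.4 and 13.9 CPM with DMSO and 21.1, 23.6 and 19.3 CPM with NCD. The lowest NCD library was above the highest DMSO library. The fold was 1.43 (95% interval 1.21 to 1.68; log2 fold change 0.51, standard error 0.10, edgeR adjusted p = 0.00185), with a range of 0.43 to 0.56 on the log2 scale when each library was left out.

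GSDME (ENSG00000105928; chromosome 7, 24698351 to 24758113, minus strand), a pore protein related to gasdermin D, had 67.0, 66.2 and 67.8 CPM with DMSO and 70.5, 68.4 and 63.8 CPM with NCD. The NCD values lay on both sides of the DMSO values. The log2 fold change was 0.01 ± 0.06 (standard error; edgeR adjusted p = 0.875), and the 95% interval of the fold was 0.912 to 1.12. This interval holds for TMM scaling only. With library totals the log2 fold change was 0.21 (adjusted p = 0.0119 from edgeR), a shift of the same size as that of all genes under this scaling. Within libraries the ratio of GSDMD to GSDME counts was 0.233, 0.232 and 0.205 with DMSO and 0.3, 0.346 and 0.303 with NCD. The groups did not overlap (two-sided exact permutation test, p = 0.1, the smallest possible). As 1 of the 5 ratios chosen after the values were seen, it adds no separate test.

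**Figure D2:**
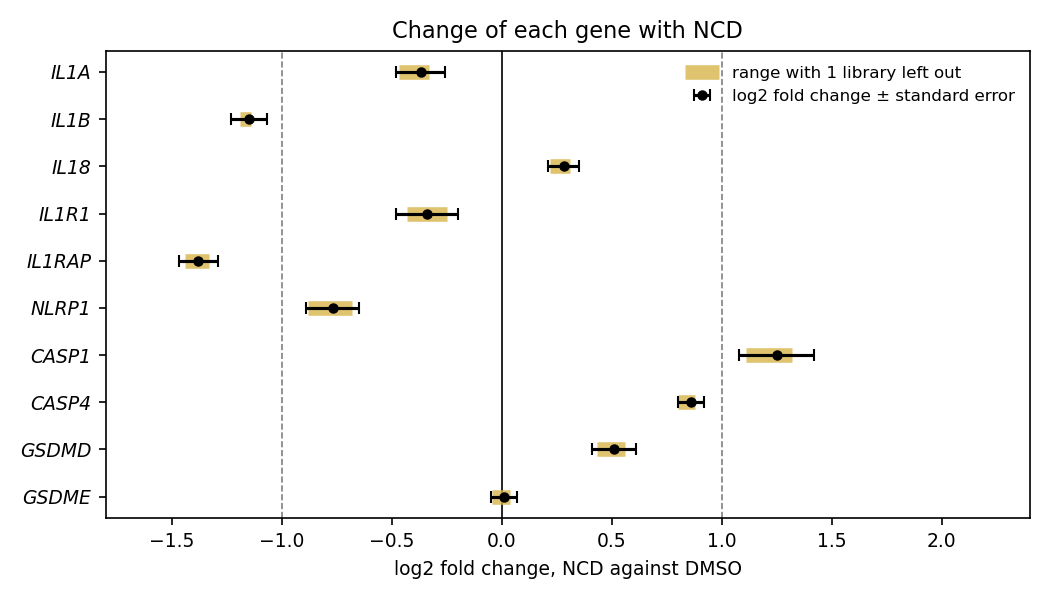
Log2 fold change of each gene (NCD against DMSO, x axis) with its standard error as a black bar, and the range over the fits that each left out 1 library in yellow; dashed lines mark -1 and 1. IL1B at -1.15 and IL1RAP at -1.38 lie beyond the lower line and CASP1 at 1.25 beyond the upper one, while GSDME lies at 0.01.

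To compare the genes with each other, CPM was divided by the length of the annotated exons in kb. With DMSO, IL18 was the highest of the 10 at 17.7 CPM per kb, followed by CASP4 at 11.4 and IL1B at 10.9, whose ranges overlapped, then IL1A at 8.13 and GSDME at 7.58, which also overlapped. GSDMD at 2.93, IL1RAP at 2.83 and NLRP1 at 2.39 CPM per kb overlapped from each to the next, and IL1R1 at 1.18 and CASP1 at 0.602 were the lowest, each apart from its neighbour. With NCD the order began with IL18 at 21.5 and CASP4 at 20.6 CPM per kb, whose ranges overlapped, followed by GSDME at 7.64, IL1A at 6.28, IL1B at 4.92 and GSDMD at 4.18, each apart from the next. The lowest levels with NCD were CASP1 at 1.43 and NLRP1 at 1.40 CPM per kb, which overlapped, and IL1RAP at 1.08 and IL1R1 at 0.933, which overlapped too. Per kb of annotated exons, IL1B thus stood above IL1A in the DMSO libraries and below it in the NCD libraries. The order of this pair with NCD depends on the lengths used, 3.1 kb for IL1B and 2.12 kb for IL1A. In undivided CPM the mean of IL1B was above that of IL1A with DMSO (33.8 and 17.3) and with NCD (15.2 and 13.3). Whether the lengths used match the transcripts expressed in these cells was not tested for any of the 10 genes. By the same measure per kb, CASP1 moved from the last place to rank 7.

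**Figure D3:**
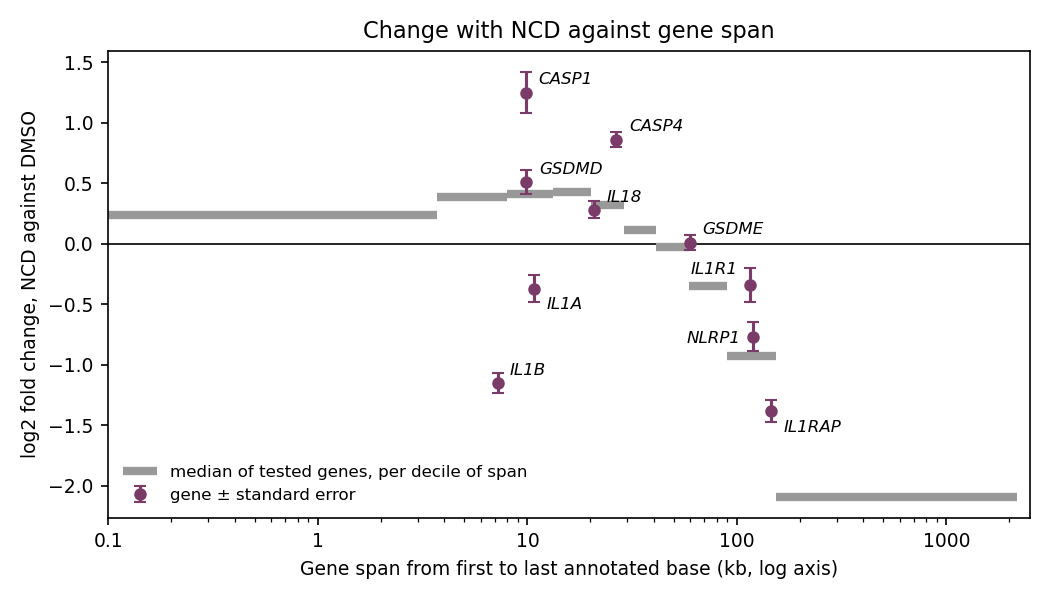
Log2 fold change (y axis, with standard error) of the 10 genes against gene span in kb (log axis), with gray bars for the median of tested genes in each decile of span. IL1B and IL1A lie below the bars at their span and CASP1 and CASP4 above them, while IL18 lies near its bar.

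Across all genes the log2 fold change moved with gene span, so each gene is set beside genes of its length. The median was between 0.24 and 0.43 in the 5 shortest deciles of span and fell to -0.93 in the ninth decile, from 89.7 to 153.1 kb, where 46% of genes were differentially expressed and lower. In the tenth decile, of longer genes up to 2172.9 kb, the median was -2.09 and 79.2% were lower. IL1R1 (115.3 kb), NLRP1 (120.0 kb) and IL1RAP (145.7 kb) all lie in that ninth decile, and all 3 had log2 fold changes below 0. NLRP1 at -0.77 was close to the median there, IL1R1 at -0.34 was above it and IL1RAP at -1.38 below it. IL1B spans 7.2 kb and its log2 fold change of -1.15 contrasts with a median of 0.39 for its decile, and IL1A spans 10.7 kb and had -0.37 against 0.41. CASP1 (9.8 kb) had 1.25 and GSDMD (9.9 kb) had 0.51 against the same 0.41, CASP4 (26.6 kb) had 0.86 against 0.32, and IL18 (20.9 kb) had 0.28 against 0.32. GSDME (59.8 kb) had 0.01 where the median was -0.35. Among all tested genes, the log2 fold change of CASP1 stood at percentile 90.8, that of IL1B at 15.1 and that of IL1RAP at 11.9. The part of gene span in these results was not tested.

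The other genes of the pathway were described from 8 lists written by hand, which held 104 genes besides the 10. Of these, 74 passed the filter and 25 were differentially expressed, 16 higher and 9 lower (33.8%). Over all tested genes the share was 31.0%, with 13.5% higher and 17.5% lower. The median log2 fold change of the 74 was 0.26, beside 0.04 over all genes. A further 21 were higher and 13 lower past the adjusted p alone, and 15 were not past it. Among all 15295 tested genes these numbers were 3326, 2540 and 4693.

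No ligand of the family besides the 3 described passed the filter, out of 8 listed. The receptor antagonist IL1RN and the alarm cytokine IL33 had 0 counts in every library, which allows up to 0.164 to 0.181 CPM with DMSO and 0.131 to 0.155 CPM with NCD, for counting error only. Of 9 other receptors and decoys 5 passed, and 4 of these were differentially expressed (80%, beside 31.0% over all genes, median -0.47). IL1RAPL1, a receptor of neurons, went from 5.90 to 0.204 CPM (log2 fold change -4.81, standard error 0.25, edgeR adjusted p = 3.82e-07) and spans 1369.3 kb. Its NCD libraries held only 5, 4 and 4 counts, close to the floor. SIGIRR, an inhibitory receptor of the family, went from 8.57 to 3.62 CPM (-1.24, standard error 0.14, adjusted p = 5.11e-05). Higher levels were found for IL1RL2, the IL-36 receptor (0.343 to 1.03 CPM, log2 fold change 1.58), and IL18R1, the binding subunit of the IL-18 receptor (0.626 to 1.34 CPM, log2 fold change 1.09), both at few counts. IL18R1 lost its call without DMSO replicate 1 (0.92) or NCD replicate 1 (0.96). IL18BP, which neutralises IL-18, had a log2 fold change of -0.47 and was not past the adjusted p (0.157 from edgeR). The decoy receptor IL1R2 had 0 counts with DMSO and 2, 1 and 3 counts with NCD, which is at or under the floor of 3 counts.

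Downstream of the receptor, 20 of 21 listed signalling genes passed and 4 were differentially expressed (20%, beside 31.0% over all genes, median 0.16). The adaptor MYD88 rose from 32.7 to 80.8 CPM (log2 fold change 1.31, standard error 0.07, edgeR adjusted p = 3.56e-07), and the ubiquitin ligases PELI1 (1.63) and PELI3 (1.72) were also higher. MAP3K7, the kinase TAK1, fell from 40.6 to 14.5 CPM (log2 fold change -1.48, standard error 0.10, adjusted p = 1.84e-06). Among 22 genes known to respond to IL-1, 19 passed. The higher calls numbered 6 and the lower calls 1 (36.8%, median 0.62). Over all tested genes 31.0% were differentially expressed, 13.5% higher and 17.5% lower. The cytokine IL6 had 4.52, 3.62 and 4.82 CPM with DMSO and 45.4, 45 and 40.7 CPM with NCD, which gave a log2 difference of 3.34 ± 0.12 (standard error; edgeR adjusted p = 4.23e-08). The adhesion molecule ICAM1 (44.2 to 140 CPM, log2 fold change 1.66), the chemokine CXCL2 (1.85), the RNase gene ZC3H12A (1.23) and the NF-kB inhibitor TNFAIP3 (1.18) rose too. The 1 lower call was the cytokine gene CSF2, which went from 3.35 to 0.736 CPM (log2 fold change -2.17, standard error 0.24, edgeR adjusted p = 4.31e-05). IL6, ICAM1, CXCL2, ZC3H12A and TNFAIP3 span 2.3 to 16.1 kb, and CSF2 spans 2.4 kb. All lie in the 4 shortest deciles of span, where medians were 0.24 to 0.43. In these deciles 19.9% to 21.9% of genes were differentially expressed and higher, and 2.93% to 9.25% lower. The part of gene span in this list was not tested. Past the adjusted p alone, a further 6 genes of this list were higher and 3 lower, against 3326 and 2540 of all 15295 tested genes. The genes of this list respond to other signals as well as to IL-1, and IL-1 signalling itself was not measured.

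Of 21 other sensors, adaptors and regulators of inflammasomes 11 passed, with 2 differentially expressed and higher and 2 lower (36.4%, median -0.19). Over all tested genes the share was 31.0%, with 13.5% higher and 17.5% lower. NEK7, the kinase that NLRP3 needs, fell from 98.5 to 29.1 CPM (log2 fold change -1.76, standard error 0.08, edgeR adjusted p = 1.99e-07) and spans 165.5 kb, a smaller fall than the median of -2.09 in its decile of span. NLRP3 itself went from 22.2 to 12 CPM (-0.89), and NAIP, a sensor of bacterial flagellin whose near-identical copies make its count uncertain, from 8.04 to 1.67 CPM (-2.27). The DNA sensor AIM2 had 6, 1 and 5 counts with DMSO and 19, 26 and 35 counts with NCD (log2 fold change 2.43, standard error 0.51, edgeR adjusted p = 0.00223), a rise at low counts. PYCARD, the adaptor that joins sensors to caspase-1, had 1.79 CPM with DMSO and 2.97 CPM with NCD (0.73), IFI16, another DNA sensor, had 0.32 and TXNIP, which binds NLRP3, had 0.48. All 3 were past the adjusted p, but PYCARD lost this without DMSO replicates 1 or 3 or NCD replicates 1 or 2 (edgeR adjusted p up to 0.114), and IFI16 without DMSO replicates 1 or 3 or NCD replicate 3 (up to 0.208). The inhibitors of NLRP1 were lower, DPP8 with a log2 fold change of -0.73 and DPP9 with -0.30, but with library totals DPP9 had -0.099 and was not past the adjusted p. CARD8, a sensor related to NLRP1, had -0.19 (adjusted p = 0.0673 from edgeR) and lay at 0.0064 with library totals.

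Among the other caspases, CASP8, an initiator of apoptosis that can also cut gasdermins, rose from 60.6 to 75.6 CPM (log2 fold change 0.32), past the adjusted p but not the fold threshold, and not past it with ribosomal protein genes as the reference. CASP5, the relative of CASP4, had at most 1 count in any library. Of 12 other gasdermins and membrane rupture genes 10 passed, and 3 were differentially expressed, all higher (30%, median 0.24). Over all tested genes 31.0% were differentially expressed, 13.5% higher and 17.5% lower. NINJ1, whose protein ruptures the membrane after pore formation, rose from 7.70 to 18.8 CPM (log2 fold change 1.28, standard error 0.15, edgeR adjusted p = 5.13e-05). NINJ2 had a log2 fold change of 0.09 and an adjusted p of 0.645. The gasdermin family genes PJVK (0.767 to 4.68 CPM, 2.58) and GSDMB (2.74 to 5.05 CPM, 0.88) rose, and GSDMA had 0 counts in every library. Among the ESCRT genes, whose products repair gasdermin pores, CHMP4C was higher (1.44), CHMP3 was lower past the adjusted p alone (-0.75), CHMP2B (0.21) was past the adjusted p but lost this when any 1 library other than NCD replicate 2 was left out (up to 0.14 from edgeR), and CHMP2A (0.26), CHMP4A (0.09) and CHMP4B (-0.10) were not past it. PJVK, CHMP4C, PELI3 and IL18BP overlap genes on the opposite strand that had up to 1696.64, 1749, 2408 and 2326.72 counts in a library, CHMP4A overlaps a gene on its own strand, CARD8, NINJ2 and SYT1 also overlap opposite-strand genes with counts, and the strand setting of the counting is not given in the sources used here, so these values are uncertain.

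Of 9 genes for processing and release of IL-1 alpha and IL-18, 7 passed and 3 were differentially expressed, all lower (42.9%, median -0.98). Over all tested genes 31.0% were differentially expressed and 17.5% were lower. Of the list, a further 2 genes were higher and 2 lower past the adjusted p alone, against 3326 and 2540 of all 15295 tested genes. CAPN2, a subunit of the calpain that cuts the IL-1 alpha precursor, fell from 771 to 279 CPM (log2 fold change -1.47, standard error 0.06, edgeR adjusted p = 8.89e-08). ANXA2, which binds membranes and takes part in unconventional secretion, fell from 3190 to 1290 CPM (-1.31), and SYT1, a synaptotagmin of regulated secretion, from 1.05 to 0.0619 CPM (-3.93), with 1 or 2 counts in each NCD library. SYT1 spans 588 kb, in the decile of span where the median was -2.09. CAPN2 (74.4 kb) and ANXA2 (55.8 kb) lie in deciles with medians of -0.35 and -0.03.

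**Figure D4:**
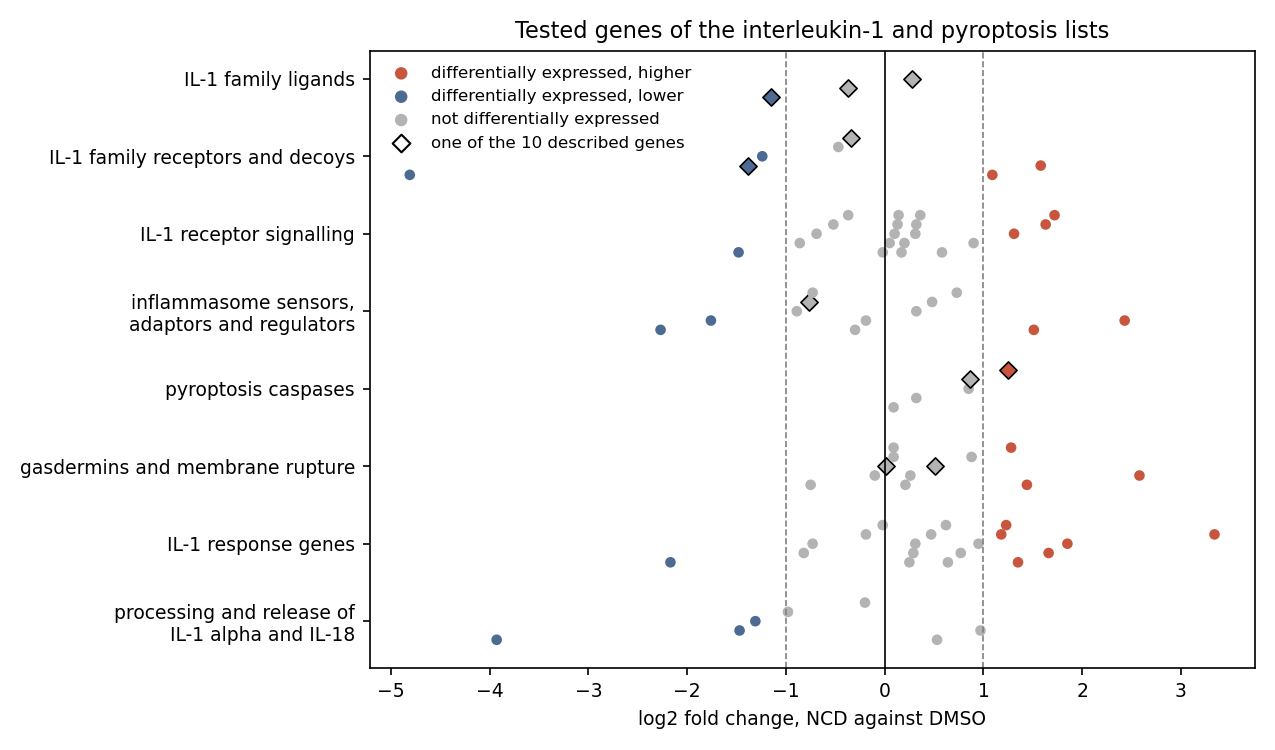
Log2 fold change of each tested gene (x axis) in the 8 lists (y axis), with red and blue for differentially expressed genes that were higher and lower, gray for the others, diamonds for the 10 described genes and dashed lines at -1 and 1. The response genes lie mostly to the right with IL6 at 3.34, and the receptor list holds both IL1RAPL1 at -4.81 and IL1RL2 at 1.58.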

How the data were processed

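RNA-seq of 6 MDA-MB-231 libraries was analysed, 3 with NCD and 3 with DMSO, grouped by their titles. The authors aligned reads to GRCh38 (hg38) with HiSat2 and deposited RSEM expected counts per Ensembl gene, each library on its own and without normalization. Tool versions, annotation release and strand setting are not given in the sources used here. In each library 25 lines held no gene or count and were skipped. Symbols were found for 62666 of 63241 identifiers, and GENCODE release 29 gave positions for 58228 of them.

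Counts were rounded and fitted with edgeR 4.0.16 in R 4.3.3 (filterByExpr with a minimum count of 10, TMM factors of 0.911 to 0.949 with DMSO and 1.059 to 1.092 with NCD, glmQLFit and glmQLFTest). Standard errors are the absolute log2 fold change over the root of the F statistic. The fit was checked on simulated counts. Alternatives used DESeq2 1.42.0, limma-voom (limma 3.58.1), other scalings, filters and thresholds, and each library left out in turn. Intervals and floors from counts cover counting error only. The members and lists were chosen with earlier results of these data known. The text names the 10 genes, up to 5 differentially expressed genes of each list with the smallest p, every tested ligand, receptor, sensor, caspase and gasdermin, and the markers. CSF2 is named besides, as the response gene that was called lower. A few of these genes are not reported here.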

Additional observations from a re-analysis of the deposited data

How the results depend on the processing

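The 10 genes gave 3 differentially expressed members under all alternatives except the loss of the fold threshold, which by construction gave 8 members, 59 other pathway genes and 10602 genes in all. Under the stricter filter (10 counts or more in each of the 6 libraries) 3683 genes were called, and 1376 of these were higher. With library totals 2 members were higher and 1 lower, since CASP4 gained and IL1B lost its call, and the share of all calls that were higher was 56.2%, compared with 43.6% under TMM. Of 170 values recomputed for the 10 genes over 17 alternatives, 154 kept their direction and their call, 1 was lost, 6 were gained and 9 changed sign. All sign changes were those of GSDME. The log2 fold change of GSDME, near 0, was -0.008 with DESeq2 size factors and with DESeq2 (at adjusted and at unadjusted p), -0.005 under the stricter filter and -0.0094 when scaled to ribosomal protein genes, and lay between -0.043 and 0.036 without each library. The same was done for 41 other named genes, CSF2 not among them. With library totals the log2 fold change of CARD8 (0.0064) and the log2 fold change of CHMP4B (0.096) changed sign. When single libraries were left out, the log2 fold change of NINJ2 ranged from -0.077 to 0.16 and the log2 fold change of CHMP4A from -0.037 to 0.19. None of these was past the threshold, and the cause was not tested. DESeq2 with unadjusted p was chosen after seeing the data.

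Deviations from the group means correlated by 0.216, -0.185 and 0.023 between libraries that share a replicate number. No label says whether a number marks a shared culture or day. These correlations cannot decide it, since each rests on deviations from a mean of 3 libraries. The main fit used no pairing. In a fit with the replicate block, 4723 genes, 3 of the 10 genes and 25 other pathway genes were differentially expressed. Depth limits IL1R2, AIM2, IL1RL2, IL18R1, IL1RAPL1, PJVK and SYT1, which had few counts in at least 1 group.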
